A study of Mus musculus with 4 samples.

Results

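The genes described here are 8 components of the death receptor pathway: the receptor gene Fas, its ligand Fasl, the adaptor Fadd, the initiator caspase gene Casp8 and its inhibitory homologue Cflar, and the inhibitor of apoptosis (IAP) genes Birc2, Birc3 and Xiap. They form a list of named pathway components, and the rule uses no measured value, although the list was drawn up with earlier results of these data known. Each was read from the probe set that the platform annotation pairs with that symbol alone and that has the highest mean over the arrays, and all 8 were found among the 19938 genes tested. No filter on level was applied. RNA came from naive CD8 T cells sorted by flow cytometry from the spleen, all of the BALB/c strain, in 2 samples of Klf13 knockout mice and 2 of wild-type mice, with 1 array per sample. Klf13 encodes a DNA-binding protein with zinc fingers, of the SP/KLF family of transcription factors. The labels give no treatment, age, sex or number of animals per sample, nor whether the replicates of a genotype are separate animals; the p-values then cover only the variation among these arrays, which may be technical. How the knockout allele was made is not given in the sources used here.

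Fas (CD95) is a cell-surface receptor of the TNF receptor superfamily. When Fas ligand binds, the receptor gathers FADD through its death domain, FADD gathers caspase-8, and caspase-8 activates itself and then the executioner caspases. c-FLIP, the product of Cflar, resembles caspase-8 and takes its place on FADD, while IAP proteins act further down, XIAP by binding caspases and the cIAP proteins of Birc2 and Birc3 as ubiquitin ligases in TNF receptor and NF-kB signalling. In T cells the pathway is known for removing activated cells after a response, and Fas is low on naive cells and higher on activated and memory cells.

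Values are log2 probe-set values, and a fold change is the knockout mean minus the wild-type mean on that scale. A gene was called when its limma p-value, adjusted by the Benjamini-Hochberg method over all 19938 genes, was under 0.05. Klf13, which checks the labels, was 3.10-fold lower in the knockout (log2 fold change -1.63, SE 0.10, limma adjusted p = 3.75e-05). Of all genes tested, 448 (2.25%) were called, 210 lower (1.05%) and 238 higher (1.19%) in the knockout. When each array was centred on its median, 1088 were called, of which 78.2% were lower, against 46.9% before. Across genes, the difference between 2 arrays had an SD of 0.191 within the knockout, 0.128 within the wild type and 0.192 to 0.254 across genotypes. Because RNA was measured in bulk, fewer cells that express a gene and less RNA per cell cannot be told apart.

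Of the 8 genes, Fas fell in the Klf13 knockout and the other 7 did not pass the test. The median fold change over the 8 genes was -0.12, beside a median of 0.02 over all genes. For 4 genes (Fas, Cflar, Birc2 and Birc3) the knockout values were both below the wild-type pair, an arrangement seen in 23.2% of all genes, and for Xiap they were both above it, as in 24.4% of all genes. These 5 without overlap compare with 47.6% of all genes. The shares and the median over all genes were not matched for level. After a further quantile normalization the median over the 8 genes was -0.056. The groups overlapped for Fasl, Fadd and Casp8.

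**Figure D1:**
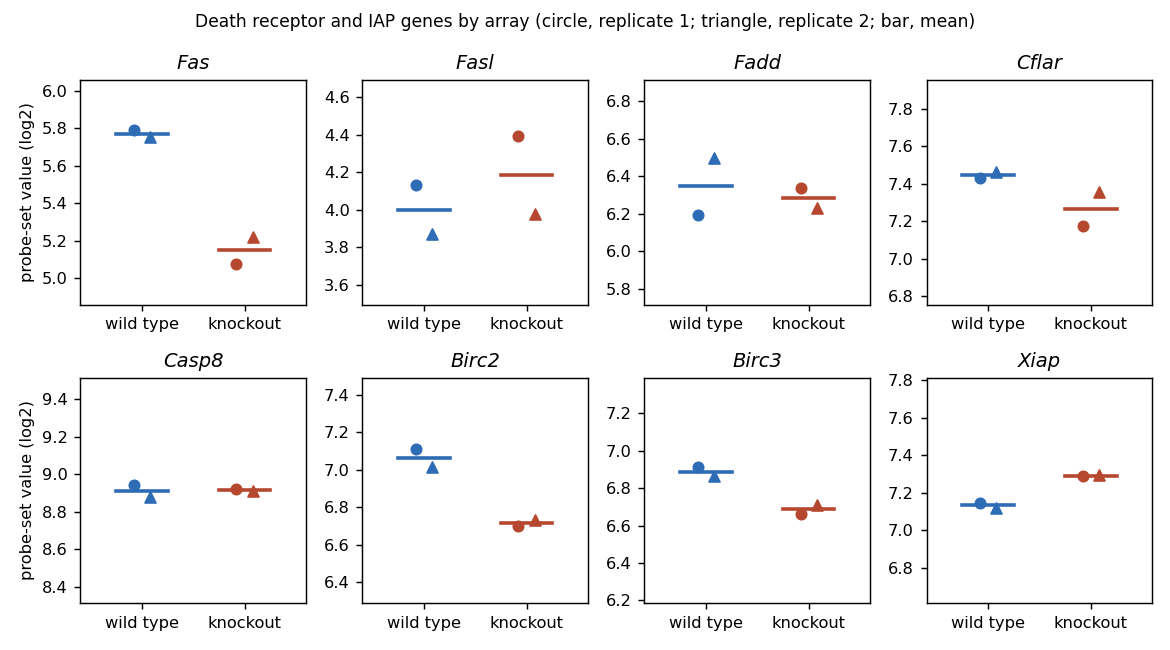
Log2 probe-set value of each of the 8 genes (y axis, the same span of 1.2 in every panel) in the wild-type (blue) and knockout (red) arrays; circles are replicate 1, triangles replicate 2 and bars the mean of 2 arrays. Fas shows the widest gap between genotypes, from 5.07 and 5.22 in the knockout to 5.79 and 5.75 in the wild type, and Casp8 values nearly coincide.

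The promoters of Fas, the gene that fell, and of Casp8, the gene whose means differed least, are shown because KLF proteins as a family bind GC-rich elements of the GC-box and CACCC type. Each is the 250 bases that lie before the start site, 5′ to 3′ on the strand of the gene, from RefSeq on GRCm38.p6, a build used here for names and sequences only, since none is named for the arrays. Capitals mark matches to GGGCGG or CACCC on either strand (CCGCCC and GGGTG on the other).
Fas promoter: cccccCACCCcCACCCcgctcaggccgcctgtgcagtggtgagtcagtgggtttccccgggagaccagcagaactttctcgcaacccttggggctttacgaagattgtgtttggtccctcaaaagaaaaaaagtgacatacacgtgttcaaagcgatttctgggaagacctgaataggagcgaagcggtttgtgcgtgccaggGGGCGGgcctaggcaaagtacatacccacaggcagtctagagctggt
Casp8 promoter: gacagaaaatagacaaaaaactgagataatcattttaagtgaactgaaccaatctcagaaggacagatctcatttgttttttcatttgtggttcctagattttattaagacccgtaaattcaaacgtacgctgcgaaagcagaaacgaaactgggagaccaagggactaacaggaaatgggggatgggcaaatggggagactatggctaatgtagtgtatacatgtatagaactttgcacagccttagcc
The Fas window, on chromosome 19, holds 1 GGGCGG and 2 CACCC matches, and the Casp8 window, on chromosome 1, holds 0 of both. Matches did not set Fas apart from the genes that did not pass: the Fadd window holds 2 GGGCGG and 1 CACCC, the Fasl window 1 of each and the Birc3 window 0 and 2, and windows of Birc2 and Xiap, which have 2 and 3 start sites in the table, hold matches as well. The Cflar window, like that of Casp8, holds 0 of both. Among all 32851 RefSeq promoter windows of this length, 32.7% hold GGGCGG and 52.0% hold CACCC on either strand. Such a match is a description of the letters and not a bound site, and binding of Klf13 was not measured in this series. All 8 genes were matched in the RefSeq promoter table.

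Fas, the receptor, gave log2 values of 5.07 and 5.22 in the knockout and 5.79 and 5.75 in the wild type. The arrays of each genotype lay close together and the groups did not overlap. The mean was 5.15 ± 0.10 (SD, n = 2) in the knockout against 5.77 ± 0.03 (SD, n = 2) in the wild type, a 1.54-fold lower level (log2 fold change -0.62, SE 0.10, 95% interval -0.84 to -0.41, limma adjusted p = 0.00943). Ranked by p-value, Fas stood at place 150 of the 19938 genes, and ranked by size it was the fall at place 80. When each of the 35556 probe sets of the table was tested singly the call was lost (same fold change, limma adjusted p = 0.127). The limma p before adjustment was then 0.00134, against 7.10e-05 in the main fit, with an SE of 0.095 against 0.096. Fas was called in the other alternatives that kept all the arrays. Over the other 10 alternatives, which included leaving out each array in turn, its fold change lay between -0.71 and -0.55.

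Fasl, the ligand that activated T cells and NK cells make, gave 4.40 and 3.98 in the knockout and 4.13 and 3.87 in the wild type. The groups overlapped, and the knockout arrays lay further apart (SD 0.30) than the genotype means. Its fold change was 0.19 (SE 0.14, 95% interval -0.13 to 0.50, limma adjusted p = 0.566), an interval that holds neither the fall measured for Fas nor any larger fall. Without knockout replicate 1 the sign turned (-0.02). Taken within each array, Fas minus Fasl was 0.68 and 1.24 in the knockout and 1.66 and 1.88 in the wild type, without overlap. The means of this difference lay apart by -0.81 (exact permutation test, two-sided, p = 0.333, the smallest that 2 arrays against 2 allow), of which -0.62 is the fold change of Fas itself. The value was -0.53 without knockout replicate 1 and -1.09 without knockout replicate 2, and the Fasl probe set gave values near the array medians of 4.31 to 4.37 over all probe sets.

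Fadd encodes the adaptor that links the receptor to caspase-8. Its values were 6.34 and 6.23 in the knockout and 6.20 and 6.50 in the wild type. Both knockout values fell between those of the wild-type arrays, and the fold change was -0.06 (SE 0.12, 95% interval -0.32 to 0.19, limma adjusted p = 0.831). The sign turned to 0.09 without wild-type replicate 2. Fadd lies on chromosome 7, as Klf13 does, with 985 protein-coding genes of the RefSeq annotation between them.

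Casp8, the initiator caspase, gave 8.92 and 8.91 in the knockout and 8.94 and 8.88 in the wild type. The 4 arrays lay within a narrow band and the knockout values fell inside the wild-type pair. The fold change was 0.01 (SE 0.09, 95% interval -0.20 to 0.21, limma adjusted p = 0.980). Its sign depended on the processing, turning to -0.08 when arrays were centred on their median and to -0.03 without wild-type replicate 2.

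Cflar, the neighbour of Casp8 on chromosome 1 with 0 protein-coding genes between them, encodes the caspase-8 homologue c-FLIP that holds caspase-8 in check. It gave 7.17 and 7.35 in the knockout and 7.43 and 7.46 in the wild type. Both knockout arrays were lower, the gap between knockout replicate 2 and wild-type replicate 1 was smaller than that between the knockout arrays, and the difference did not pass (-0.18, SE 0.10, 95% interval -0.40 to 0.04, limma adjusted p = 0.402). It was -0.09 without knockout replicate 1 and -0.27 without knockout replicate 2. The platform annotation pairs 3 probe sets with Cflar alone, and the other two gave -0.13 and -0.12 when all probe sets were tested singly. The within-array difference Cflar minus Casp8 was -1.75 and -1.56 in the knockout and -1.51 and -1.42 in the wild type; the means differed by -0.19 (exact permutation test, two-sided, p = 0.333, the smallest possible), by -0.09 without knockout replicate 1 and by -0.29 without knockout replicate 2.

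Among the IAP genes, Birc2, which encodes cIAP1, gave 6.70 and 6.73 in the knockout and 7.11 and 7.01 in the wild type. The groups did not overlap and the replicates lay close. The fold change of -0.35 (SE 0.09, 95% interval -0.55 to -0.14) did not pass over all genes (limma adjusted p = 0.104). The p before adjustment was 0.00401 by limma, under a threshold of 0.05 that 16.6% of all genes met. Birc2 passed when arrays were centred on their median (-0.43, limma adjusted p = 0.0244). A second, dimmer probe set of Birc2 gave 5.94 and 6.21 in the knockout and 6.31 and 6.10 in the wild type, with overlap and a fold change of -0.13.

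Birc3, which encodes cIAP2 and is a target of NF-kB, is the neighbour of Birc2 on chromosome 9, with 0 protein-coding genes between them. It gave 6.66 and 6.71 in the knockout and 6.91 and 6.86 in the wild type. The groups did not overlap, but the difference did not pass (-0.20, SE 0.09, 95% interval -0.40 to 0.004, limma adjusted p = 0.311). Birc2 minus Birc3 within an array was 0.04 and 0.02 in the knockout and 0.20 and 0.15 in the wild type. The means of this difference lay apart by -0.15 (exact permutation test, two-sided, p = 0.333, the smallest possible), and by -0.04 when the 2 probe sets of Birc2 were averaged. Over the 3 within-array pairs compared, the Benjamini-Hochberg adjusted p was 0.333 for each.

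Xiap, on the X chromosome, encodes the IAP that binds and inhibits caspases directly. Its values were 7.29 and 7.29 in the knockout and 7.14 and 7.12 in the wild type. The replicates nearly coincided and both knockout arrays were higher, the opposite side from Birc2 and Birc3. The difference of 0.16 (SE 0.09, 95% interval -0.04 to 0.36) did not pass (limma adjusted p = 0.427), and it kept its sign in all 11 alternatives, between 0.07 and 0.25.

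**Figure D2:**
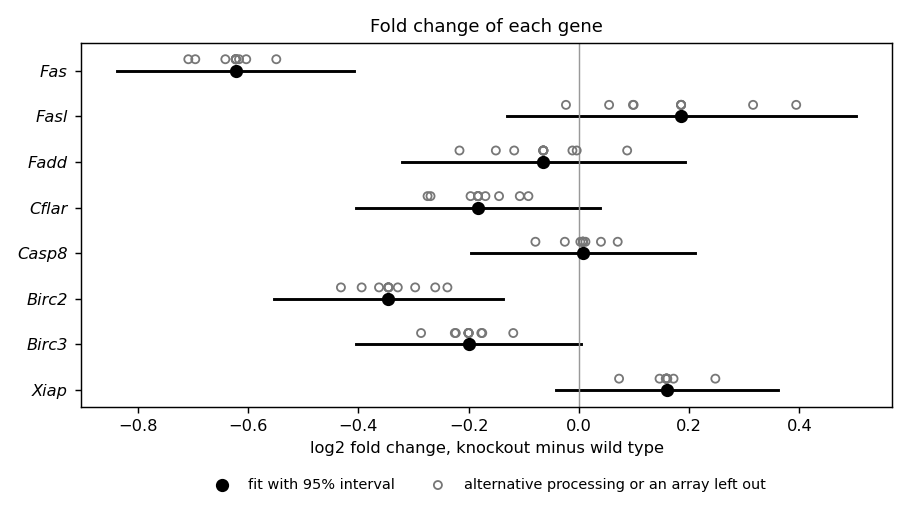
Log2 fold change, knockout minus wild type (x axis), of each of the 8 genes; filled circles with bars are the fitted values with 95% limma intervals, and open circles are values under alternative processing or with an array left out. The intervals of Fas and Birc2 lie wholly below 0, and the other 6 intervals include 0.

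The rest of the pathway was described by 7 lists, with 85 measured genes once the 8 genes above and repeats are set aside. Of these, 0 rose, 1 fell and 84 did not pass by limma over all genes, a share of calls to be read beside the 2.25% of all genes. Their median fold change was -0.04, with 32 genes whose knockout arrays both lay below and 16 whose knockout arrays both lay above the wild type, beside 23.2% and 24.4% of all genes. These shares over all genes were not matched for level. Of the calls among the 9969 genes of higher mean level, 56.4% were lower in the knockout, against 46.9% over all genes. The other genes of the 96 listed were not analysed here.

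Traf1 was the gene that fell. It encodes an adaptor that binds the cIAP proteins with TRAF2 at TNF receptors, and it is itself a target of NF-kB, so it stood in both NF-kB lists. Its values were 7.18 and 7.18 in the knockout and 8.04 and 8.03 in the wild type, with replicates far closer than the groups (log2 fold change -0.85, SE 0.09, 95% interval -1.05 to -0.65, limma adjusted p = 0.00107). Like Fas, Traf1 was called in 10 of 11 alternatives and lost its call when all probe sets were tested singly (limma adjusted p = 0.0756).

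Of 12 other death receptors and their ligands, 0 passed, and the median was 0.05. The receptor genes Tnfrsf21 (0.33, limma adjusted p = 0.116) and Tnfrsf25 (0.35, limma adjusted p = 0.211), both with an intracellular death domain as in Fas, lay higher in both knockout arrays, and the cytokine gene Tnf lower (-0.30, limma adjusted p = 0.252). Of 18 adaptors and kinases of the receptor complexes, 0 passed, with a median of -0.07, and both knockout arrays lay below the wild type for 9 of the 18, beside 23.2% of all genes. The smallest p-values there were those of the adaptor gene Traf5 (-0.38, limma adjusted p = 0.0716), the linear deubiquitinase gene Otulin (-0.40, limma adjusted p = 0.103) and Sharpin, a subunit of the linear ubiquitin ligase (-0.38, limma adjusted p = 0.127).

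Of 12 other caspase and apoptosome genes, 0 passed and the median was -0.04. The inflammatory caspase genes Casp4 (0.29, limma adjusted p = 0.162) and Casp1 (0.39, limma adjusted p = 0.171) lay higher in both knockout arrays, and cytochrome c, Cycs, lay lower (-0.30, limma adjusted p = 0.164). Of 10 other IAP genes and IAP antagonists, 0 passed and the median was -0.01; the smallest p-values were those of Naip5 (0.33), Naip6 (0.21) and the mitotic IAP gene Birc5 (-0.22), with limma adjusted p of 0.179, 0.296 and 0.297. The Naip genes are near copies of each other, so their values are uncertain.

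Of 8 partners of the cIAPs in the non-canonical NF-kB route, 1 (Traf1) fell, and the median was -0.04. Of 14 NF-kB target genes, 1 (Traf1 again) fell and 13 did not pass, with a median of -0.10; both knockout arrays lay below the wild type for 9 of the 14, beside 23.2% of all genes. Of 17 targets of p53, a factor that can induce Fas, 0 passed and the median was -0.04. The smallest p-values were those of Sesn1 (0.30, limma adjusted p = 0.142), Polk (-0.22, limma adjusted p = 0.312) and the BH3-only gene Pmaip1 (-0.16, limma adjusted p = 0.439). Counts in the other lists are given as both knockout arrays below, then both above the wild type, beside 23.2% and 24.4% of all genes. They were 2 and 4 of 12 death receptors and ligands, and 4 and 4 of 12 caspase and apoptosome genes. IAP genes and antagonists gave 4 and 3 of 10, cIAP partners 3 and 2 of 8, p53 targets 4 and 1 of 17. Both lay above for 1 of the 18 adaptors and kinases and 1 of the 14 NF-kB targets.

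**Figure D3:**
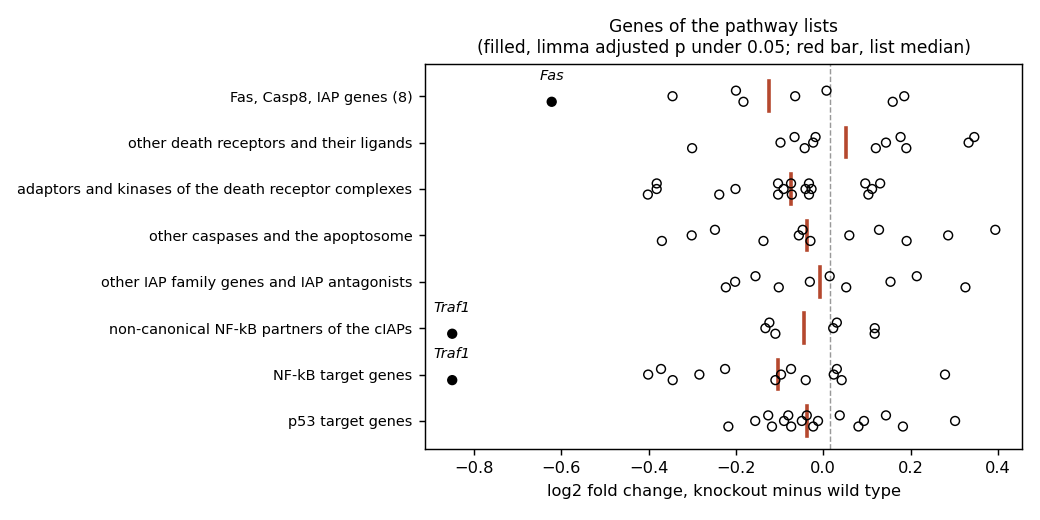
Log2 fold change, knockout minus wild type (x axis), of each measured gene in the 8 death receptor and IAP genes and in 7 pathway lists (rows); filled points were called by limma over all genes, red bars are list medians and the dashed line is the median of 0.02 over all genes. Fas and Traf1 are the filled points, and Traf1 appears in 2 lists.

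The genes whose 4 values, centred on their own mean, lay nearest those of Fas were Neurl3, Tlcd4, Tfpi, Dnajc15 and Gtf2a2, at root mean square differences of 0.027 to 0.034 on the log2 scale over the 4 arrays. Neurl3 encodes a ubiquitin ligase, Tfpi an inhibitor of the tissue factor pathway of coagulation and Gtf2a2 a subunit of the general transcription factor TFIIA. Their fold changes lay between -0.64 and -0.56, as the choice by likeness to Fas fixes.

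Markers of other cells differed between the same arrays. The counts that follow are to be read beside the 1.19% of all genes called higher and the 1.05% called lower in the knockout. Of 10 measured core T cell genes, 0 passed, and their summed linear level was 10447 and 10695 in the knockout against 10948 and 10942 in the wild type. Of 12 genes of neutrophils and granulocyte precursors, 4 rose (Mpo, Elane, Ctsg and Prtn3), with a summed level of 921 and 1005 in the knockout against 298 and 345. The other 8 did not pass. Among them were S100a8 (0.30, limma adjusted p = 0.348), S100a9 (0.23, limma adjusted p = 0.281) and Ly6g (-0.12, limma adjusted p = 0.623). Of the 12 fold changes, 10 were positive and 2 negative. Of 11 B cell genes 3 rose (Ighm, Ly6d and Cd74), with sums of 1115 and 1116 against 711 and 738. Without Ighm, the largest part of that gap, the sums were 468 and 492 against 346 and 373. Of the 11 fold changes, 10 were positive and 1 negative (Cd22, -0.05), and that of Ms4a1 was 0.01. Of 13 myeloid and dendritic genes 4 rose (Lyz2, Flt3, Csf1r and Mpeg1), with sums of 1521 and 1609 against 1186 and 1209. Most of that gap is Cst3, which did not pass (chosen after its value was seen, limma adjusted p = 0.0623). Without Cst3 the sums were 269 and 305 against 225 and 220. Of the 13 fold changes, 12 were positive and 1 negative, that of Cd68 (-0.34, limma adjusted p = 0.189). Of 8 regulatory T cell genes 3 rose (Itgae, Gpr83 and Ikzf2, with sums of 456 and 528 against 342 and 333), while Foxp3, which defines that lineage, differed by 0.18 (limma adjusted p = 0.650). Itgae was the largest part of that gap, and without it the sums were 260 and 306 against 238 and 230. Of the 8 fold changes, 6 were positive and 2 negative. Of 9 NK cell genes Cd244a and Tyrobp rose and Prf1, which cytotoxic CD8 T cells also make, fell; the sums were 265 and 315 against 396 and 366, but 136 and 153 against 116 and 109 without Prf1, and the median fold change was 0.22. Of 7 CD4 T cell genes St8sia6 rose and Cxcr5 and Tnfsf8 fell (312 and 341 against 380 and 377). Of 7 erythroid and platelet genes Itga2b and Pf4 rose (657 and 704 against 685 and 703). Of these 7 fold changes, 4 were positive and 3 negative. The negative ones were those of the erythroid genes Epb42 (-0.31), Klf1 (-0.14) and Epor (-0.03). Without Tnfsf8, its largest part, the CD4 T cell sum was 229 and 251 in the knockout against 253 and 251. Cd4 itself gave 4.07 and 3.47 in the knockout and 3.79 and 3.88 in the wild type. The part of these differences in the values of Fas and Traf1 was not tested.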

How the data were processed

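RNA of 4 samples was measured on 1-colour Affymetrix arrays, 1 per sample. The authors deposited log2 values, 1 per probe set and array; RMA and Partek are named, with no versions, in the submitters' processing notes. RMA, as a method, brings array distributions close together and compresses the folds of dim genes. The columns as deposited were not identical in distribution: their upper quartiles ran from 6.52 in knockout replicate 1 to 6.67 in wild-type replicate 1, and medians over the genes from 4.59 to 4.71. Array number, not depth, limits precision. The platform annotation paired 21789 of 35556 probe sets with 1 symbol, 1621 with several and listed none for 12146. Symbols were updated by gene identifier to RefSeq names (GRCm38.p6; 21698 matched). Each of 19938 genes was read from its single-symbol probe set of highest mean.

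Genotypes were compared by a linear model with genotype alone, fitted in limma 3.58.1 (R 4.3.3) with moderated variances (8.06 prior degrees of freedom), two-sided, with Benjamini-Hochberg adjustment over all genes, tested on simulated data. Named were Klf13, the 8 genes, the called members of each pathway list or else the 3 with the smallest p, up to 4 called markers per cell type, and the 5 genes nearest Fas. Foxp3, Cd4, Cst3, S100a8, S100a9, Ly6g, Epb42, Klf1, Epor, Cd68, Ms4a1 and Cd22 were added after their values were seen. Members, lists and tests were chosen with earlier results of these data known. Same-numbered samples did not deviate together (correlation 0.01), so replicate numbers were not used as a pairing. Alternatives covered probe-set choice, level filter, normalization, centring, the variance model, a replicate block and each array left out.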

Additional observations from a re-analysis of the deposited data

How the results depend on the processing

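Klf13 was called in all 11 alternatives and Fas in 10; Fasl, Fadd, Cflar, Casp8, Birc3 and Xiap were called in 0. With all probe sets tested singly, calls over all genes numbered 39 of 35556 and 0 of the 8 genes passed, Fas included (-0.62, limma adjusted p = 0.127). Arrays centred on their medians gave 1088 calls over all genes, 2 of the 8 genes (Fas and Birc2, -0.43), a median over the 8 genes of -0.21 and a turned sign for Casp8 (-0.079). The median was -0.056 when the genes were quantile normalized again and -0.18 among the 9969 genes of higher mean level, where 7 of the 8 remained and Fasl was left out. A variance trend with robust moderation gave 831 calls over all genes. With the replicate number as a replicate block, 1187 genes and 2 of the 8 passed, Birc2 at a limma adjusted p = 0.0457 with an unchanged fold change of -0.35. Averaging probe sets moved the Birc2 minus Birc3 difference to -0.038. Leaving out 1 array gave 264 to 1536 calls over all genes (264 without knockout replicate 1, 1536 without knockout replicate 2, 277 without wild-type replicate 1), 1 call among the 8 genes each time, medians of -0.19 to -0.10, and fold changes of -0.70 to -0.55 for Fas, -0.27 to -0.09 for Cflar, -0.023 to 0.39 for Fasl, -0.22 to 0.088 for Fadd and -0.025 to 0.040 for Casp8. The lone array of a genotype was then assumed to vary like the other pair. The causes were not tested. The 95% intervals of the 8 genes reached 0.20 to 0.32 to either side of the fitted value, so smaller changes were not resolved with 2 arrays per genotype.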
